A study of Mus musculus with 12 samples.

Results

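The nuclear genes for subunits of mitochondrial respiratory complexes I to IV were described in RNA from whole mouse forebrain. A list of 49 such genes was taken by symbol, and 48 of them are among the 12158 genes of the authors' expression table. These are 32 genes of complex I, 4 of complex II, 6 of complex III and 6 of complex IV; Ndufs5 of complex I was not analysed here. All 48 passed the filter on low values that left 12102 genes.

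Forebrain was taken on embryonic days e12.5, e14.5 and e17.5, on the day of birth (P0), and from adults, which the labels call P56. At each stage, C57BL/6N mice heterozygous for a germline mutation of the chromatin remodeller Chd8 (Chd8+/del5) were set beside wild-type littermates. The table holds 44 libraries: 8 of e12.5, 9 of e14.5, 10 of e17.5, 11 of P0 and 6 of adults. Columns are named by stage, and nothing in the labels ties a column to a genotype, so heterozygous and wild-type animals were not compared. Each stage below mixes both genotypes and both sexes, and whether its libraries came from separate animals is not stated. Nothing in this description was tested. Values are log2 RPKM, in which counts are scaled by the length of the gene and the size of the library, and each stage is described by its median and range. A gene is called higher or lower between 2 stages where their ranges do not overlap, and a difference is between stage medians.

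Complex I oxidises NADH and complex II oxidises succinate, and both pass electrons to ubiquinone. Complex III hands these electrons to cytochrome c, and complex IV passes them to oxygen. Complexes I, III and IV pump protons, and the gradient drives ATP synthase, the main source of ATP in mature neurons. The catalytic core of complex IV and part of complexes I and III are encoded in mitochondrial DNA and are not among these 48 genes. Nrf1, GABP (an ETS factor), YY1 and CREB are transcription factors known to act at many respiratory chain promoters.

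Promoter sequence is shown for 4 of the members whose level at P0 lay apart from e14.5 and from adults: Ndufs6 was higher at P0, and Ndufc1, Uqcrfs1 and Sdhd were lower. Each line gives the 150 bases before the annotated start, 5′ to 3′ on the strand of the gene, from RefSeq on GRCm38.p6, with capitals where one of 4 motifs matches.
Ndufs6, chr13:73328483-73328632, minus strand: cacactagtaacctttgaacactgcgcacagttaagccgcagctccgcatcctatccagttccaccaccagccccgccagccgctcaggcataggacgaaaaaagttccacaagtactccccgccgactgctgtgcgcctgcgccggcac
Ndufc1, chr3:51408956-51409105, minus strand: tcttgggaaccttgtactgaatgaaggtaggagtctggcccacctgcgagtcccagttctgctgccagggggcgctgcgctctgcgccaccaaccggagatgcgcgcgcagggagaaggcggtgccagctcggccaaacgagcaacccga
Uqcrfs1, chr13:30545317-30545466, minus strand: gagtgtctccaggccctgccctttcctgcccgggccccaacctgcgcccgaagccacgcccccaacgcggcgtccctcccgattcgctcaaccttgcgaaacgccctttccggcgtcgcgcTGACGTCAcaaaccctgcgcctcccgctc
Sdhd, chr9:50603850-50603999, minus strand: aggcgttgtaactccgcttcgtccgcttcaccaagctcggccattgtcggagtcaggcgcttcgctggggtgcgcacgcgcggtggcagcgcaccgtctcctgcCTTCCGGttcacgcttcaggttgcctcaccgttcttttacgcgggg

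The motifs were searched on both strands of RefSeq windows from 250 bases before to 50 bases after the start, of which 40 belong to 39 of the members. The letters GCATGCGC (the Nrf1 core) occur in 6 of the 40 windows, or 15%, against 5.13% of windows of genes in the table. CCGGAAG (ETS) occurs in 8 windows, or 20%, against 16.4%, and TGACGTCA (CRE) in 4 windows, or 10%, against 3.07%. AAGATGGCG (YY1) occurs in 5 windows, against 2.92% of those of the table. These are Ndufc1, Ndufa9, Ndufs7, Ndufs6 and Ndufs4. Over all 32851 windows the shares were 2.71%, 8.86%, 1.79% and 1.4%, in the same order. In Ndufs6 and Ndufc1, whose levels at P0 lay on opposite sides of those at e14.5 and in adults, the YY1 letters lie just after the start, as the capitals show.
Ndufs6, chr13:73328434-73328459, minus strand: ggtcaccggcAAGATGGCGgcggtgc
Ndufc1, chr3:51408918-51408943, minus strand: cctgcggaacAAGATGGCGccgtccg
The 4 genes whose promoter is shown are the members apart at P0 that had a match in their window. Matches also occur in members that were not apart at P0, such as Ndufa8 (Nrf1 core), Ndufa9 (YY1) and Ndufa10 (CRE). The share of windows with any of the 4 motifs was not computed. Of the other members that lay apart at P0, Ndufa1 and Cox5a had no match, and Ndufa2 and Uqcrb had no window. A match of letters describes the window only, and the motifs were chosen after the levels had been seen.

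All 48 genes were well expressed, with stage medians between 3.5 (Uqcrb at P0) and 9.40 (Cox4i1 in adults). Reads over the genes of the table, could be recovered as whole numbers in the 34 libraries outside e17.5. The totals lay between 11491514 (e14.5 library 8) and 47420198 (e12.5 library 7). The 48 genes together held a median of 0.362% of these reads at e12.5, 0.485% at e14.5, 0.428% at birth and 0.511% in adults. The fewest reads behind any value were 79, for Uqcrb in P0 library 8, where counting error alone is 11.3%; the median was 1616 reads, with 2.49%. 

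Adult library 1 stood apart from the other 5 adult libraries. Its correlation with them over 12102 genes was 0.940 to 0.953, while the lowest among the others was 0.968. Dcx, a protein of migrating young neurons, was 6.15 in adult library 1, 0.94 to 2.22 in the other adult libraries and 7.11 to 7.52 at P0. Mki67, a marker of dividing cells, was 1.62 in adult library 1, −2.48 to −1.64 in the other adult libraries and 2.09 to 3.06 at P0. The library went against its adult label in these genes, while Mbp, a myelin protein, was 7.80 in it, 7.92 to 9.57 in the other adult libraries and 2.27 to 3.11 at P0. Adult comparisons are therefore given with and without it.

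The spread of a gene's 5 stage medians ran from 0.24 for Ndufv2 to 3.18 for Uqcrb, with a median of 0.85. It was over 1 in 19 genes and under 0.5 in 7. Ndufv2, an iron-sulphur subunit of the NADH-oxidising arm of complex I, had medians of 6.09 at e12.5, 6.11 at e14.5, 6.16 at e17.5, 5.93 at P0 and 6.13 in adults. Genes of 1 complex did not share 1 course, as the map of stage medians shows.

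**Figure D1:**
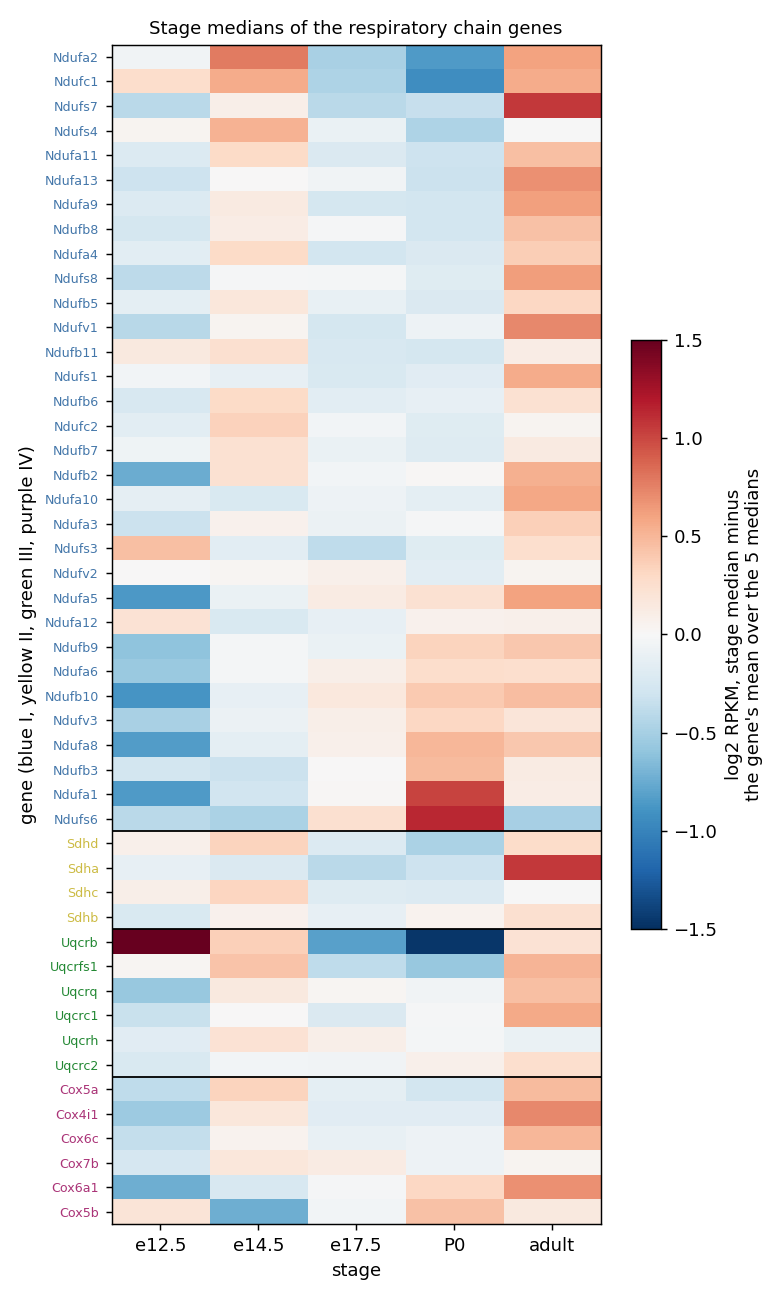
Stage medians of the 48 genes, each as log2 RPKM minus the gene's own mean over the 5 stage medians (colour, clipped at 1.5 in either direction), with stages in columns and genes in rows, grouped by complex and sorted by the difference of P0 from e14.5 and adults. Most genes of each complex are red in adults, the top rows of complexes I and III are blue at P0, and Ndufa1 and Ndufs6 are red at P0.

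From P0 to adulthood, more members were higher than lower. In adults against P0, 18 of the 48 (37.5%) were higher and 2 (4.17%) were lower, while of all genes 29.3% were higher and 25.2% lower, 54.5% in all. The median difference over the 48 was 0.44, against −0.01 over all genes, and 40 of the 48 medians were above those of P0. Without adult library 1, 22 of the 48 were higher and 2 lower, with a median of 0.46, while of all genes 31.2% were higher and 30% lower. The medians by complex were 0.41, 0.48, 0.54 and 0.48 from I to IV with all libraries, and 0.44, 0.51, 0.59 and 0.51 without adult library 1. Under quantile normalization of all libraries the median over the 48 was 0.23, and by complex it was 0.20, 0.24, 0.26 and 0.11.

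Sdha, the flavoprotein subunit of succinate dehydrogenase that binds succinate, ranged from 7.21 to 7.71 in adults (median 7.59), against 6.02 to 6.37 at P0 (median 6.22). Every adult library lay above every P0 library, by 1.37 between medians, or 2.58-fold. Sdha had been nearly level before, with medians of 6.41, 6.32 and 6.13 at e12.5, e14.5 and e17.5.
Sdhd, a membrane anchor of complex II, was also higher in adults, by 0.75, a call that was lost under median centring and quantile normalization. Sdhb, the iron-sulphur subunit, had medians of 7.22 in adults and 7.04 at P0, with overlapping ranges. Sdhc, the other anchor, had 6.47 in adults and 6.27 at P0, also overlapping.

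Ndufs7, an iron-sulphur subunit next to the quinone site of complex I, ranged from 6.66 to 7.33 in adults (median 7.03), against 5.44 to 5.80 at P0 (median 5.63). The stages were apart by 1.40, or 2.64-fold, and the adult range also lay above all values of e12.5, e14.5 and e17.5. Ndufs8, another iron-sulphur subunit of that arm, had 5.87 to 6.58 in adults, against 5.20 to 5.72 at P0. Ndufv1, which binds NADH and flavin mononucleotide, had 6.84 to 7.17 in adults, against 6.02 to 6.45 at P0. Ndufs1, the largest iron-sulphur subunit, had 5.48 to 5.98 in adults, against 4.99 to 5.15 at P0. Medians of these genes were higher in adults by 0.80, 0.79 and 0.73, and in none of them did the adult and P0 ranges meet. Ndufs1 was lowest, at 5.48, in adult library 1, and the other adult libraries began at 5.79.

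Uqcrc1, a core protein of complex III, ranged from 7.29 to 7.67 in adults, against 6.81 to 7.16 at P0, apart by 0.58 between medians. Uqcrc2, the other core protein, had medians of 7.12 in adults and 6.94 at P0, with overlapping ranges. Cox4i1, a complex IV subunit that takes part in its control by ATP, had the highest median of the members on this per-length scale at e12.5, at e14.5 and in adults, and level with Cox6a1 at e17.5 (8.51 in both). Cox4i1 ranged from 8.87 to 9.95 in adults, against 7.92 to 8.74 at P0, a difference of 0.89 in medians. That call was lost under quantile normalization, where the ranges overlapped and the difference was 0.66.

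The other members higher in adults than at P0 were Ndufa2, Ndufa4, Ndufa9, Ndufa10, Ndufa13, Ndufb5, Ndufc1, Sdhd, Uqcrb, Uqcrfs1 and Cox5a, with differences from 0.53 (Ndufb5) to 1.68 (Uqcrb). Ndufa4 bears a complex I name, but its protein is now assigned to complex IV. Those lower in adults were Ndufs6 (a difference of −1.63) and Ndufa1 (−0.91), both accessory subunits of complex I. The remaining 28 genes had overlapping ranges, with differences from −0.35 (Ndufb3) to 0.76 (Ndufa11). Of the 48, 31 had their lowest adult value in adult library 1. Leaving out that library can only narrow the adult ranges, so no call above could be lost. Without it, Ndufa3, Ndufa5, Ndufb11 and Cox6c were higher as well, and no difference of medians moved by more than 0.12.

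Markers of other cell types moved over the same interval. The summed RPKM of 8 oligodendrocyte markers was 832 to 2060 in adults, against 82.5 to 120 at P0, and that of 7 astrocyte markers was 487 to 836 in adults, against 173 to 256 at P0. For 6 of 7 microglial markers it was 136 to 259 in adults, against 47.2 to 75.9 at P0. For 8 progenitor markers it was 69.5 to 453 in adults (at most 110 without adult library 1), against 788 to 1026 at P0. For 7 neuronal markers the ranges of the sum overlapped (3112 to 3878 in adults, 3317 to 3931 at P0), but opposite changes offset each other in it. Taken singly, 3 of the 7 were higher in adults and 4 lower, with differences from −5.59 (Dcx) to 3.83 (Snap25). Of the 7 astrocyte markers, 4 were higher singly and 0 lower. The 7 endothelial markers summed to 81.0 to 111 in adults, against 82.3 to 112 at P0, but here too opposite changes offset each other. Flt1 was higher (1.44), Kdr was lower (−1.42) and the others overlapped. Without adult library 1, 2 were higher and 2 lower. The 4 blood markers in the table, of 8, summed to 1.98 to 5.93 in adults, against 2.24 to 4.07 at P0. These blood markers are the embryonic globins Hbb-y, Hba-x and Hbb-bh1, and Alas2, and the adult globins listed were not in the table. Muscle and heart markers, 2 of 9 in the table, had a median sum of 10.9 in adults, against 4.63 at P0. The part of this shift in cell types in the members' values was not tested, and in whole forebrain fewer cells of a type and less RNA per cell cannot be told apart.

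**Figure D2:**
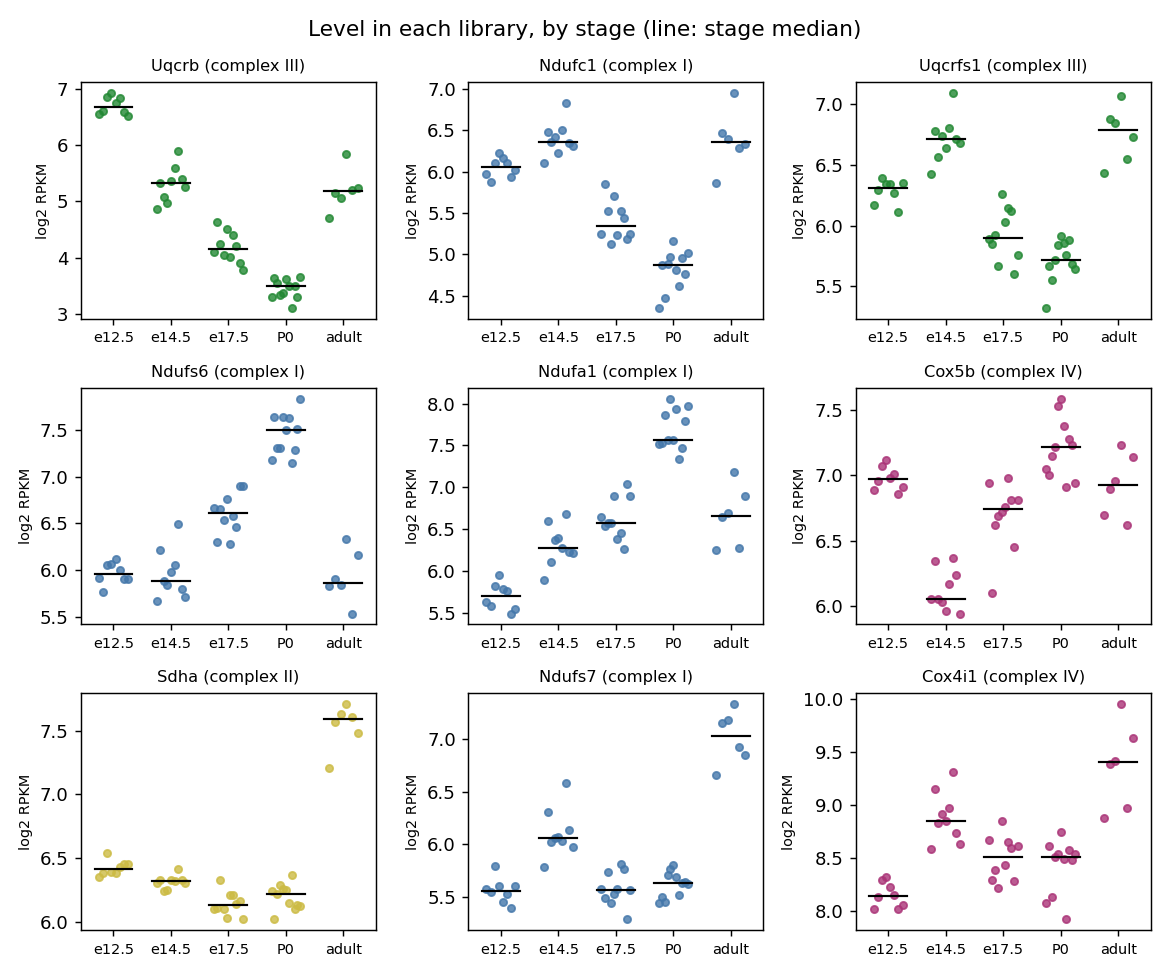
Log2 RPKM of 9 members in each of the 44 libraries (points, in table order within a stage) by stage, with the stage median as a line; each panel has its own vertical axis, which does not start at 0. Uqcrb, Ndufc1 and Uqcrfs1 are lowest at P0, Ndufs6 and Ndufa1 are highest there, Cox5b is lowest at e14.5, and Sdha, Ndufs7 and Cox4i1 are highest in adults.

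Birth was set against e14.5 and adults. The stage next to birth, e17.5, is single-end like these and does not enter this contrast; the members' median difference at P0 against e17.5 was 0.04. The value is the P0 median minus the mean of the e14.5 and adult medians, and a gene is called where all P0 libraries lie beyond all libraries of both other stages. By this rule 2 members (4.17%) were higher at P0 and 6 were lower, while of all genes 5.84% were higher and 5.21% lower, 11% in all. The median over the 48 was −0.36, against −0.02 over all genes, and 37 of the 48 values were below 0. Medians by complex were −0.38 for complex I, −0.55 for complex II, −0.33 for complex III and −0.27 for complex IV. Among the medians of e14.5, e17.5, P0 and adults, that of P0 was the lowest in 21 members (43.8%), against 19.3% of all genes, and the highest in 7 (14.6%), against 18.2%. Without e14.5 library 1, in which the members lay low, 10 members rather than 6 were lower at P0, while 12.1% of all genes lay apart in either direction. Without adult library 1, 7 were lower and the median was −0.38, while 11.5% of all genes lay apart.

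Uqcrb, a small subunit of complex III near its quinone site, had the largest gap. Its range was 6.52 to 6.92 at e12.5, 4.86 to 5.89 at e14.5, 3.78 to 4.63 at e17.5, 3.11 to 3.67 at P0 and 4.71 to 5.84 in adults. Each prenatal stage lay wholly below the one before it, P0 lay below e17.5, and adults overlapped e14.5. The P0 median was 1.75 below the mean of e14.5 and adults, a 3.36-fold difference.

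Ndufc1, a membrane subunit of complex I, ranged from 6.10 to 6.83 at e14.5, from 5.13 to 5.85 at e17.5, from 4.35 to 5.16 at P0 and from 5.86 to 6.95 in adults. P0 and e17.5 nearly separated, with 1 narrow overlap, and both lay below e14.5. Ndufa2, an accessory subunit with a thioredoxin-like fold, ranged from 6.28 to 7.11 at e14.5, from 5.0 to 5.78 at e17.5, from 4.69 to 5.41 at P0 and from 6.24 to 7.12 in adults. The P0 medians of these genes were below the mean of e14.5 and adults by 1.49 and 1.54.

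Uqcrfs1, the Rieske iron-sulphur protein that takes electrons from ubiquinol in complex III, ranged from 6.42 to 7.09 at e14.5, from 5.60 to 6.26 at e17.5, from 5.32 to 5.91 at P0 and from 6.43 to 7.07 in adults. Here e17.5 and P0 were low alike, with overlapping ranges, and e14.5 and adults were high alike. Sdhd ranged from 6.13 to 6.76 at e14.5, from 5.46 to 6.09 at e17.5, from 5.35 to 5.88 at P0 and from 5.97 to 6.73 in adults. Its call at P0 was lost under median centring and under quantile normalization, where the differences were −0.72 and −0.68. Cox5a, a matrix-side subunit of complex IV, ranged from 7.52 to 8.23 at e14.5, from 7.02 to 7.46 at P0 and from 7.68 to 8.30 in adults, and its P0 median was 0.69 below the mean of the other two stages.

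The opposite course was seen in Ndufs6 and Ndufa1. Ndufs6, a zinc-binding subunit that joins the NADH-oxidising arm late in complex I assembly, ranged from 5.77 to 6.12 at e12.5, from 5.67 to 6.49 at e14.5, from 6.28 to 6.90 at e17.5, from 7.14 to 7.83 at P0 and from 5.54 to 6.33 in adults. P0 stood above every other stage, and adults overlapped e12.5, e14.5 and, narrowly, e17.5. The P0 median was 1.62 above the mean of e14.5 and adults, or 3.07-fold.

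Ndufa1, a small membrane subunit encoded on chromosome X, ranged from 5.49 to 5.95 at e12.5, from 5.89 to 6.68 at e14.5, from 6.26 to 7.04 at e17.5, from 7.34 to 8.06 at P0 and from 6.25 to 7.18 in adults. P0 again stood above all other stages, by 1.10 over the mean of e14.5 and adults. The mix of sexes differed between stages, with Xist, a marker of female cells, above 0 in 6 of the 8 libraries of e12.5, 5 of the 9 of e14.5, 5 of the 10 of e17.5, 9 of the 11 of P0 and 1 of the 6 of adults; its part in Ndufa1 was not tested. The other X-linked members, Ndufb11 and Cox7b, were 0.44 and 0.19 below the mean of e14.5 and adults at P0.

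Cox5b, a zinc-binding subunit of complex IV, had a course of its own. It ranged from 6.86 to 7.12 at e12.5, from 5.94 to 6.37 at e14.5, from 6.10 to 6.98 at e17.5, from 6.91 to 7.59 at P0 and from 6.62 to 7.23 in adults. The e14.5 libraries lay below those of e12.5, P0 and adults, e17.5 overlapped every other stage, and P0 and adults overlapped each other. RefSeq names 1 pseudogene of Cox5b, 1 of Ndufa12 and 2 of Uqcrh, and the counting rule for reads that match several places is not given in the sources used here, so the levels of these genes are uncertain. Only pseudogenes that carry the gene's own symbol were searched for, so the other members, Uqcrb among them, are not shown to be free of this problem.

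P0 was also read directly against e14.5. Of the 48, 4 (8.33%) were higher and 10 (20.8%) lower at P0, while of all genes 22.7% were higher and 23.1% lower, 45.8% in all. The median difference was −0.19, against −0.04 over all genes. Higher were Ndufs6 (1.61), Ndufa1 (1.30), Cox5b (1.16) and Ndufb3 (0.80), and lower were Uqcrb (−1.82), Ndufa2 (−1.63), Ndufc1 (−1.49), Uqcrfs1 (−0.99), Ndufs4 (−0.98), Sdhd (−0.81), Cox5a (−0.62), Sdhc (−0.53), Ndufb11 (−0.50) and Ndufb7 (−0.42). Ndufs4, a complex I subunit whose loss in mice gives a fatal encephalopathy, ranged from 4.50 to 5.18 at P0, against 5.56 to 6.29 at e14.5. Of 9 subunits chosen for naming, Uqcrfs1 and Cox5a are among the lower ones, and 7 had overlapping ranges, with differences from −0.34 (Cox4i1) to −0.01 (Sdhb and Uqcrc1). Ndufs7 also overlapped, with −0.43. Without e14.5 library 1, 16 members were lower, and the median was −0.24, while 48.9% of all genes lay apart in either direction. Summed RPKM of the 8 progenitor markers was 788 to 1026 at P0, against 1297 to 1851 at e14.5, that of the 7 neuronal markers 3317 to 3931 at P0, against 1932 to 2544 at e14.5, and that of the blood markers 2.24 to 4.07 at P0, against 62.6 to 528 at e14.5. For astrocytes it was 173 to 256 at P0, against 86.4 to 106 at e14.5, for oligodendrocytes 82.5 to 120, against 29.2 to 40.8, and for microglia 47.2 to 75.9, against 29.1 to 46.3; their part in these values was not tested.

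The length of a gene's model, recovered with the reads, was compared with its difference at birth. Lengths ran from 349 bp (Ndufa3) to 2927 bp (Ndufs1), and 37 of the 48 members lay among the shortest 10% of all genes, up to 1299 bp. The 25 members under 700 bp had a median birth difference of −0.35, and the 23 of 700 bp or more had −0.44. The values were more spread among the short members, from −1.75 to 1.62, than among the longer ones, from −1.03 to 0.37. Both members called higher at P0 and 4 of the 6 called lower are under 700 bp. Spearman's rho between length and birth difference was −0.22 across the 48 members and 0.03 across all 12102 genes; genes share their libraries and are not independent. In the other 486 genes of that 10% with a mean above 5, the median was 0.07, and over all genes of that 10% it was −0.03. By this measure the values at P0 were not lower in short members: the difference of short minus longer members was 0.09, and stayed between 0.04 and 0.13 with any 1 library left out. It was 0.29 with the boundary at 600 bp and 0.07 at 1000 bp.

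**Figure D3:**
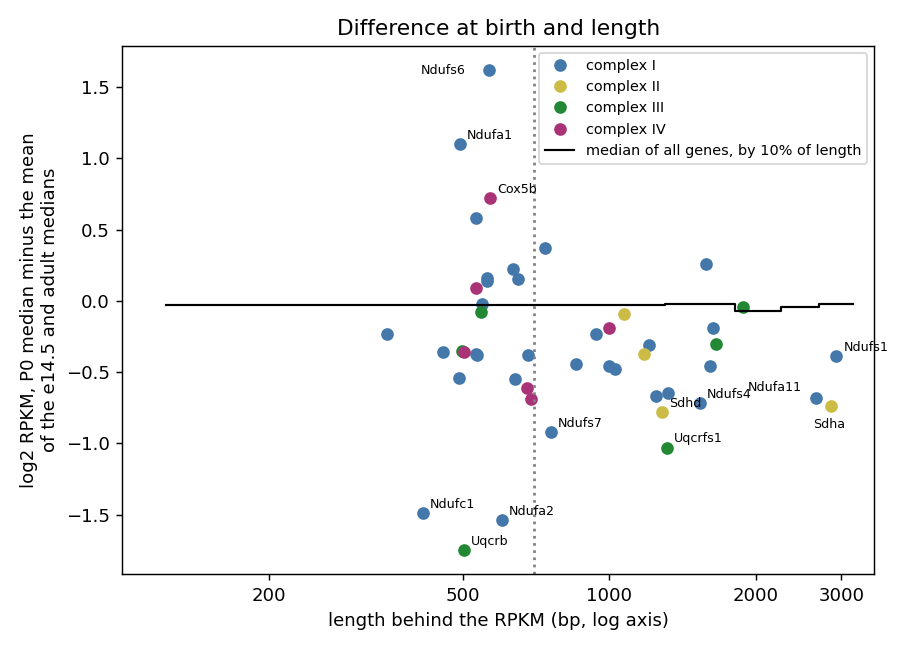
P0 median minus the mean of the e14.5 and adult medians (log2 RPKM, vertical axis) against the length behind the RPKM (bp, log axis) for the 48 members, coloured by complex, with the median of all genes in each 10% of length as a line and 700 bp as a dotted line. Members scatter on both sides of the line on the left, from Uqcrb at −1.75 to Ndufs6 at 1.62, and most lie below it on the right.

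In adults against P0 the median was 0.37 in short members, of which 6 of 25 were higher and 2 lower, and 0.58 in longer ones, of which 12 of 23 were higher and 0 lower. The difference of short minus longer members was −0.21 with all libraries and −0.23 without adult library 1. In e14.5 against e12.5 the median was 0.49 in short and 0.32 in longer members. That difference of 0.17 was 0.02 with the boundary at 600 bp and 0.14 at 1000 bp.

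Between e14.5 and e17.5, no member was higher and 8 (16.7%) were lower at e17.5, while of all genes 13.1% were higher and 12.1% lower, 25.2% in all. The median difference was −0.18, against −0.03 over all genes, with complex II at −0.36, complex III at −0.18, complex I at −0.15 and complex IV at −0.11. The 8 were Ndufa2 (−1.26), Uqcrb (−1.16), Ndufc1 (−1.01), Uqcrfs1 (−0.81), Ndufs4 (−0.62), Sdhd (−0.54), Sdhc (−0.52) and Ndufb11 (−0.47). The call of Sdhd was lost under median centring. Without e14.5 library 1, 15 members were lower, while 28.1% of all genes lay apart in either direction. Summed markers also lay apart: progenitors at 983 to 1222 RPKM at e17.5, against 1297 to 1851 at e14.5, neurons at 2613 to 3388, against 1932 to 2544, and astrocytes at 124 to 207, against 86.4 to 106. Oligodendrocyte markers were at 57.8 to 96.3 RPKM at e17.5, against 29.2 to 40.8 at e14.5, and blood markers at 4.90 to 19.4, against 62.6 to 528. The fall in the blood sum was that of the embryonic globins, while Alas2 overlapped, with medians of 3.91 at e17.5 and 3.67 at e14.5. The part of these in the members' values was not tested.

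From e17.5 to birth the members differed little. At P0 against e17.5, 3 (6.25%) were higher, Ndufa1 (1.0), Ndufs6 (0.88) and Ndufb3 (0.47), and 1 (2.08%) was lower, Uqcrb (−0.66), while of all genes 4.89% were higher and 6.28% lower, 11.2% in all. With only the 5 e17.5 libraries of higher header numbers, 22.1% of all genes lay apart, and 4 members were higher and 1 lower. Blood markers summed to 2.24 to 4.07 RPKM at P0, against 4.90 to 19.4 at e17.5. Among them Hba-x and Alas2 (median 1.21 at P0, against 3.91 at e17.5) were lower. The sums of the other marker lists overlapped, but single markers lay apart. Higher at P0 were Gfap (1.89) and Aqp4 (1.66) of astrocytes, Sox10 (1.27) and Olig2 (0.66) of oligodendrocytes, and Rbfox3 (0.87) of neurons. Pecam1 of endothelium was lower (−0.55). Their part in the members' values was not tested. Ndufb3, a small membrane subunit of complex I, ranged from 6.36 to 6.68 at P0, against 5.81 to 6.22 at e17.5. The median difference of 0.04 turned to −0.10 under quantile normalization, and to −0.04 with the 5 e17.5 libraries of 1 header series alone. Without P0 library 6, Ndufc1 was also lower, giving 2, while 11.4% of all genes lay apart in either direction. The e17.5 values do not fall on whole reads as those of all other stages do, with at most 11% of low values in a library doing so. Its 10 libraries carry 2 series of sample numbers in their headers, and 125 pairs of values were equal within a series and 0 across them. Between the series, the medians of the 48 members differed by −0.28 to 0.36, with a median of 0.10 (lower numbers minus higher numbers), so differences of that size at e17.5 cannot be told apart from whatever separates the series.

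The earliest comparison crosses 2 sequencing designs, since the e12.5 libraries are paired-end with 100 bp reads and those of the other stages are single-end with 50 bp reads. In e14.5 against e12.5, 16 members (33.3%) were higher and 3 (6.25%) lower, while of all genes 23.1% were higher and 22.3% lower, 45.4% in all. The median difference was 0.39, against 0.03 over all genes, and by complex it was 0.40, 0.24, 0.36 and 0.46 from I to IV. The highest differences were those of Ndufb2 (0.97), Ndufa2 (0.83), Ndufa5 (0.77) and Ndufb10 (0.75), accessory subunits of complex I. Cox4i1 ranged from 8.58 to 9.31 at e14.5, against 8.02 to 8.32 at e12.5, and Ndufv1 from 6.12 to 6.73 at e14.5, against 5.80 to 6.04 at e12.5. Lower at e14.5 were Uqcrb (−1.35), Cox5b (−0.92) and Ndufs3 (−0.61), a core subunit on the quinone side of complex I. Without e14.5 library 1, 29 members were higher, while 49.9% of all genes lay apart in either direction. Without e14.5 library 7, 5 were lower, while 48.7% of all genes lay apart.

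Stage and read design cannot be told apart here, and some related genes differed far more. Gapdh, the glycolytic enzyme often used as a reference gene, had a median of 9.07 at e12.5 and medians of 0.40, 0.21, 0.80 and 0.86 at e14.5, e17.5, birth and adulthood. Atp5g2, for the c-ring of ATP synthase, had 6.03 at e12.5 and from −1.01 to −0.45 at the other stages. Cox7c of complex IV had 6.90 at e12.5 and from −0.15 to 1.04 at the others. The largest such drop among the 48 members was that of Uqcrb. Summed blood markers were 62.6 to 528 RPKM at e14.5, against 1679 to 4568 at e12.5. The 3 embryonic globins among them were lower at e14.5, while Alas2 overlapped, with medians of 3.67 at e14.5 and 3.66 at e12.5. Neuronal markers were 1932 to 2544 at e14.5, against 1280 to 1761 at e12.5, endothelial markers 77.7 to 111, against 32.9 to 59.4, and the 2 measured muscle and heart markers 1.12 to 5.26, against 0.329 to 0.896. The sums of the other marker lists overlapped, but single markers in them lay apart. Of the 8 progenitor markers, 7 were lower at e14.5 and 1, Fabp7, was higher (median 9.58, against 8.65 at e12.5). Higher and lower were 3 and 0 of 7 astrocyte markers, 3 and 1 of 8 oligodendrocyte markers, and 2 and 0 of 6 microglial markers. The part of any marker list in the members' values was not tested.

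Within a stage, the members moved together from library to library. In e14.5 library 7 all 48 lay above their stage median, by 0.45 in the middle, and in e14.5 library 1 47 lay below it, by −0.30. In adult library 4 all 48 were above (0.39), and in adult library 1 all 48 were below (−0.32). In P0 library 1 46 were below (−0.28). The median deviation of all genes in these 5 libraries was between −0.01 and 0.03. The other 486 well-expressed genes of the shortest 10% deviated by 0.40, −0.24, 0.23, −0.05 and −0.28 in the same 5 libraries, close to the members in all but the adult ones. Leaving out e14.5 library 1 changed the calls of several members together, as given above for each comparison that it enters.

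**Figure D4:**
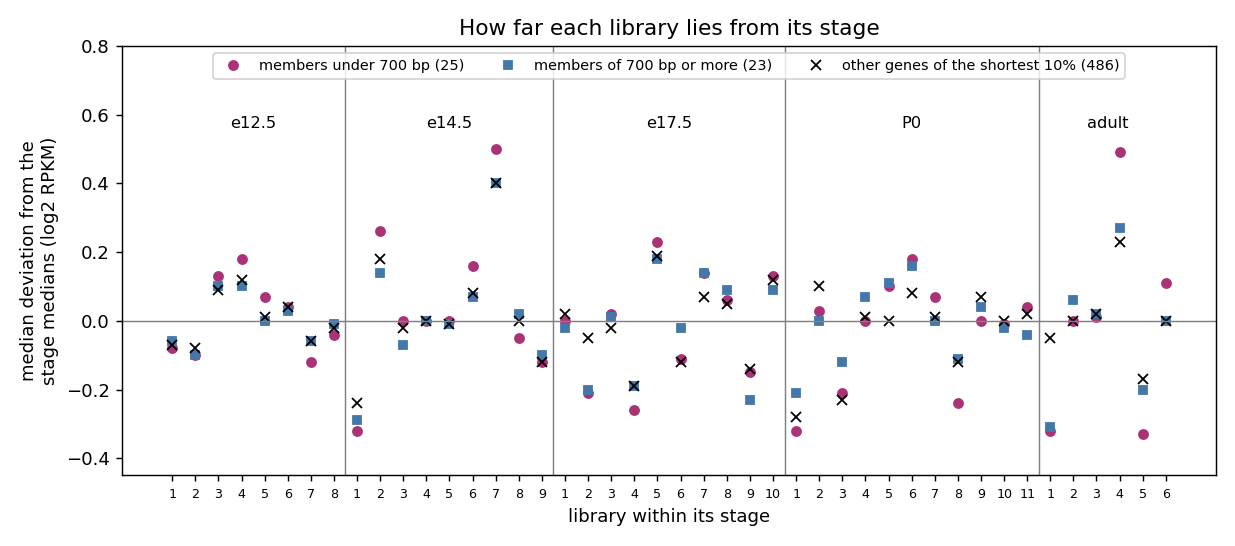
Median deviation from the stage medians (log2 RPKM, vertical axis) in each of the 44 libraries, for the 25 members under 700 bp (circles), the 23 longer members (squares) and 486 other genes of the shortest 10% with a mean above 5 (crosses). The 3 sets sit close together in most libraries, with e14.5 library 7 highest. In adult library 1 both sets of members are lower (−0.32 and −0.31) than the other genes (−0.05), and likewise in e17.5 library 2 (−0.21 and −0.20, against −0.05).

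Genes that act with the respiratory chain were listed beside it. Of 12 further subunit genes in the table (of 21 listed), 3 were higher and 1 lower in adults against P0, with a median of 0.57; without adult library 1 these were 4, 1 and 0.65. For this and the lists below, the shares over all genes are 29.3% higher and 25.2% lower in adults against P0, and 22.7% higher and 23.1% lower at P0 against e14.5. The lower one was Cox7a2l, a subunit-like protein that joins complexes III and IV into supercomplexes. It had medians of 6.23 at e12.5, 5.89 at e14.5, 6.39 at e17.5, 7.38 at P0 and 5.44 in adults, and its P0 range lay above that of e14.5. Another of these genes, Cycs, the somatic cytochrome c, had 2.04 in adults and 0.33 at P0, a difference of 1.71.

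Of 16 ATP synthase genes, 4 were higher and 1 lower in adults against P0 (median 0.31), and at P0 against e14.5, 0 were higher and 4 lower (median −0.23). The 4 higher and the 4 lower are each close to the share over all genes. In the second comparison Atp5e, the epsilon subunit, was lower with a difference of −1.98. Of 34 assembly factors, 10 were higher, which is at the share over all genes, and 0 lower in adults against P0 (median 0.30), and 1 was higher and 11 lower at P0 against e14.5 (median −0.14). Cox17, a copper chaperone for complex IV, had medians of 6.17 in adults and 4.42 at P0. Tmem126b, a complex I assembly factor, had 4.25 in adults and 2.50 at P0, and Cox14, needed to make the core of complex IV, had 6.08 in adults and 4.41 at P0. Those 3 genes were also lower at P0 than at e14.5, with differences of −0.75, −1.41 and −1.42.

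Of 17 genes of the tricarboxylic acid cycle, 11 were higher and 1 lower in adults against P0 (median 0.58), among them Idh3a and Idh3b of isocitrate dehydrogenase, each by 1.09. At P0 against e14.5, 5 were higher and 3 lower (median 0.09), with Idh3a higher by 0.42. Of 18 glycolytic genes, 15 were higher and 0 lower in adults against P0 (median 1.54), with the neuronal enolase Eno2 at 9.21 in adults and 5.73 at P0. Without adult library 1, the counts of members higher and lower in adults were 11 and 1 in the tricarboxylic acid cycle, 15 and 0 in glycolysis, 12 and 0 in assembly factors and 6 and 1 in ATP synthase. Whether these lists differed from the respiratory chain genes was not tested.

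Of 16 regulators of mitochondrial gene expression, 3 were higher and 6 lower in adults against P0 (median −0.41, or −0.42 and the same counts without adult library 1). Ppargc1a, the coactivator PGC-1 alpha, had medians of 0.83 at e12.5, 1.28 at e14.5, 1.88 at e17.5, 2.36 at P0 and 3.42 in adults. Esrra, a nuclear receptor that works with it, had 5.03 in adults and 3.26 at P0. Polg was the other regulator called higher. Gabpa, the DNA-binding part of GABP, had 2.60 in adults and 3.64 at P0, a difference of −1.04. Also lower in adults were Tfb2m (−1.02), Pprc1 (−0.99), Gabpb1 (−0.99), Yy1 (−0.94) and Nrf1 (−0.59). At P0 against e14.5, 2 of the 16 were higher and 8 lower (median −0.40), while of all genes 22.7% were higher and 23.1% lower.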

How the data were processed

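Forebrain RNA was measured by stranded, poly(A)-selected sequencing, per the labels' protocols. The deposited expression table holds log2 RPKM values made by the authors. The base of the logarithm was read from the values. The submitters' processing notes name STAR 2.4.2a, bcl2fastq and build mm9. No counter, annotation or prior count is given in the sources used here. A deposited ChIP peak list was not used, since no annotation of its build was at hand.

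In 34 libraries, the values of 12157 of the 12158 genes were whole reads (tolerance 0.02) on a gene length in whole bases. This gave depth and length, and was checked on simulated data. Intervals of counting error do not cover biological spread.

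The labels list 10 RNA samples. Each column carries a stage and no explained genotype, so libraries were grouped by stage and numbered in table order, which is only a name. Genes with a mean of at most −2 (56) were left out. Stage medians and ranges were compared with Python 3.11.15, numpy 2.4.6 and pandas 2.3.3, and no test was run. The comparison of birth with e14.5 and adults, the boundary of 700 bp and the motifs were chosen once the values were known. The members and gene lists were chosen with earlier results of these data known. Named are core subunits and those with the largest differences, up to 4 of complex I and 2 of each other complex. Up to 4 of each other list are named, and all regulators called in adults against P0. Ndufa1, Ndufb3, the remaining members and those regulators were named after their values were seen. Gene sequences came from RefSeq. Alternatives were leaving out each library, median centring, quantile normalization, log2(RPKM + 1), other filters, single e17.5 series and other length boundaries.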

Additional observations from a re-analysis of the deposited data

Results flagged for a closer look

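Stages of 4 to 10 libraries were searched for outlying values of each named member and of the median level of all members and of each complex. P0, with 11 libraries, was not searched, so nothing is said here of outlying libraries at birth. Of these 84 sets of values, 2 held a library far from the others, both for a named member. Chance alone would flag about 1 set in 20. Ndufa2 was 7.12 log2 RPKM in adult library 4, against 6.24 to 6.54 in the other adult libraries, and all 48 members lay above their stage medians in that library. Ndufs1 was 5.48 in adult library 1, against 5.79 to 5.98 in the others, and all 48 lay below in that library, which also carried markers of young neurons and dividing cells. Neither was tested further, and without either library both genes stayed apart between adults and P0.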

How the results depend on the processing

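Of 330 recomputed counts and medians, 307 stayed within 1.5 times of the count or within the spread between libraries, and 23 moved. The cause was not tested. Under quantile normalization, 33 members were higher in e14.5 against e12.5, with 45.9% of all genes apart in either direction, and complex IV had a median of 0.70. In e17.5 against e14.5, 1 was higher and 13 lower, with 25.6% of all genes apart. In P0 against e17.5, 2 were lower, while 10.8% of all genes lay apart. The medians there were −0.10 over the members, −0.10 in complex II and −0.28 in complex III. In P0 against e14.5, 16 were lower, with 46.2% of all genes apart, and complex III had −0.44. In adults against P0, the medians were 0.24, 0.26 and 0.11 in complexes II, III and IV. With the e17.5 libraries of lower header numbers alone, 1 member was higher against e14.5, with 33.1% of all genes apart. In P0 against e17.5, 2 were then lower, with 15.2% of all genes apart. With those of higher numbers alone, 22.1% of all genes lay apart in P0 against e17.5. Leaving out libraries can only narrow a range, so calls can be added but not removed. The counts below could therefore not fall under those with all libraries. With 1 library left out, members higher in e14.5 against e12.5 numbered 16 to 29 and lower 3 to 5, with 45.6% to 49.9% of all genes apart. In e17.5 against e14.5 they numbered 0 to 1 higher and 8 to 15 lower, with 25.3% to 29% of all genes apart. In P0 against e17.5, 1 to 2 were lower, in P0 against e14.5 10 to 16, and in P0 against e14.5 and adults 6 to 10. Of all genes, 11.2% to 13.8%, 45.9% to 48.9% and 11.1% to 12.1% lay apart, in the same order. The upper ends of 29, 15, 16 and 10 were without e14.5 library 1. Of 288 calls of named genes under other scalings, 19 changed. Median centring, log2(RPKM + 1) and the filters moved no count by over 1.5 times. Protein length in place of gene length was not run, as no protein lengths were used here. No paired analysis was possible because the columns carry no replicate number that the labels explain. Depth limits Uqcrb most, with 79 reads at the lowest.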

Other observations

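Genes of mitochondrial import and inner membrane carriers move proteins and metabolites across the mitochondrial membranes. Of 28 in the table, 7 were higher and 2 lower in adults against P0, with a median of 0.07, or 0.15 without adult library 1, while of all genes 29.3% were higher and 25.2% lower. Slc25a3, the phosphate carrier, had medians of 8.22 in adults, 6.58 at P0 and 7.52 at e14.5, and Slc25a5, an ADP/ATP carrier, had 6.26 in adults, 5.43 at P0 and 6.30 at e14.5. In both, P0 lay below e14.5 and adults lay above P0. Timm23, a channel of the import machinery, had 3.97 at e12.5 and from −0.90 to −0.14 at the single-end stages.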
